A study of Rattus norvegicus with 24 samples.

Results

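Ret, Cntfr, Epha7, Ptpru and Flt3 are 5 of the 32623 genes counted in rat carotid bodies (CBs), the chemosensory organs at the fork of the carotid artery. They were taken as rows of the count table whose Ensembl identifier the study's differential expression table pairs with those symbols, and that table listed each of them as higher in the spontaneously hypertensive strain. Their strain differences are therefore a description, and where calls of the strain model are given they stand beside the share of all genes called and support nothing. Polyadenylated RNA was sequenced from the left and the right CB of 6 male SHR/NHsd rats, a hypertensive inbred strain, and 6 male WKY/NHsd rats, the normotensive comparison strain, all untreated and aged 12 to 14 weeks, which gave 24 libraries in 4 groups by strain and side. Each strain is one inbred line with no second hypertensive or normotensive line beside it, so any genetic difference between the lines goes with blood pressure and both cannot be told apart. The right CB of SHR rat 34 was left out of the study's strain comparison and is treated separately here.

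The 5 genes carry signals from outside the cell, but they are not one family. Ret encodes a receptor tyrosine kinase that is switched on by the GDNF family of neurotrophic ligands bound to GFRα co-receptors, and it is known from neural crest derivatives, the lineage of the oxygen-sensing glomus cells. Cntfr encodes the ligand-binding chain of the ciliary neurotrophic factor receptor, which signals with gp130 and the LIF receptor. Epha7 encodes an Eph receptor tyrosine kinase that binds membrane-bound ephrin-A ligands on neighbouring cells, and Ptpru encodes a cell-contact receptor of the receptor tyrosine phosphatase family, so it binds no growth factor and the collective name of growth factor receptors does not cover it. Flt3 encodes the class III receptor tyrosine kinase of haematopoietic progenitors and dendritic cells.

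The promoters of Ret and Flt3 are shown because Ret was the member whose strains separated completely and Flt3 is the blood-lineage receptor among neural ones. Of the 5 genes, 4 (Ret, Epha7, Ptpru, Flt3) were found in a RefSeq promoter table of assembly GRCr8. Each line gives the 250 bases before the annotated start, 5′ to 3′ on the gene's strand, with CpG dinucleotides in capitals. Ret lies on the minus strand at chr4:153040557-153040806 and Flt3 on the plus strand at chr12:12659785-12660034.
Ret: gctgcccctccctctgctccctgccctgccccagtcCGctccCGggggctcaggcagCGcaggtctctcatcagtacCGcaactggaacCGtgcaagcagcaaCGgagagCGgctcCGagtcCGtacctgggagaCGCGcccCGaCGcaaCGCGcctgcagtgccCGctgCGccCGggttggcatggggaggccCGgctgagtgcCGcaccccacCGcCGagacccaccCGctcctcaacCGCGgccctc
Flt3: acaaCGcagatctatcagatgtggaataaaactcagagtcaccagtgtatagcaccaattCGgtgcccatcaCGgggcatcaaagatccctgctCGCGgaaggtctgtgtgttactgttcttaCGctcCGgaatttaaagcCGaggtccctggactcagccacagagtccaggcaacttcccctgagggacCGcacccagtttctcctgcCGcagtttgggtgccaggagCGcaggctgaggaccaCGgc
The Ret window held 25 CpG dinucleotides and 72.8% G or C, and 9.74% of the 33469 promoters in the table held as many CpG. The Flt3 window held 12 CpG and 56.0% G or C, a CpG number reached by 31.5% of promoters. The median promoter held 5 CpG and 51.2% G or C, so both windows lay on the CpG-rich side and Ret further than Flt3. A TATA box written TATAAA, searched on both strands, occurred in neither window and in 12.9% of all promoters. The hypoxia response core ACGTG was absent from both windows and present in 16.6% of promoters, whereas CCAAT occurred once in the Flt3 window, not in the Ret window, and in 34% of promoters.

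Across the 23 libraries used for the strain comparison the total counts ran from 9198341 to 13655419 with a median of 9795388. Levels are CPM, counts scaled to a common library size by TMM, a value that depends on transcript length, so levels are compared between samples and never between genes. The glomus cell markers chromogranin A and B, Chga and Chgb, stood at 602 ± 69.2 and 538 ± 53.4 CPM in WKY rats (SD, n = 6), so the labelled tissue carried its secretory cell markers. Only 5 of the 15 glomus markers listed could be matched to an identifier, because symbols could be paired only with genes listed as higher in SHR. The same limit holds for every marker and pathway list below, whose matched genes therefore share a direction of strain difference by construction. The share of them called between the strains is raised by the same choice, so nothing is read from it. Thyroglobulin (Tg), a thyroid gene, reached 215 CPM in the right CB of SHR rat 30 and 29.1 CPM in that of SHR rat 37, against at most 10.6 CPM in any other library but the right CB of SHR rat 34.

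Ret was the most evenly separated of the 5. In WKY the left CBs read 34.03 CPM at the lowest, 37.9 at the median and 49.0 at the highest, and the right CBs read 25, 38.5 and 48.4 CPM. In SHR the left CBs read 52.0, 66.0 and 83.7 CPM, and the 5 right CBs read 53.7, 55.4, 56.8, 68.4 and 72.9 CPM. All 11 SHR libraries lay above all 12 WKY libraries. Averaged over the sides of each rat, WKY gave 38.3 ± 4.86 CPM and SHR 63.4 ± 9.30 CPM (SD, n = 6 each), a ratio of 1.65, with the highest level in SHR rat 36 at 78.3 CPM. Complete separation of the libraries in that direction occurred for 0.913% of the 14243 genes tested, and complete separation of the rats for 3.52%, and since this contrast chose the gene nothing is read from its place among them. Among the libraries, with strain and side in the model, Ret had a biological coefficient of variation of 15.1%, close to the 15.5% common to all genes. That value mixes differences between rats with differences between the sides of a rat. In bulk RNA of this kind fewer cells of a type and less RNA per cell cannot be told apart.

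**Figure D1:**
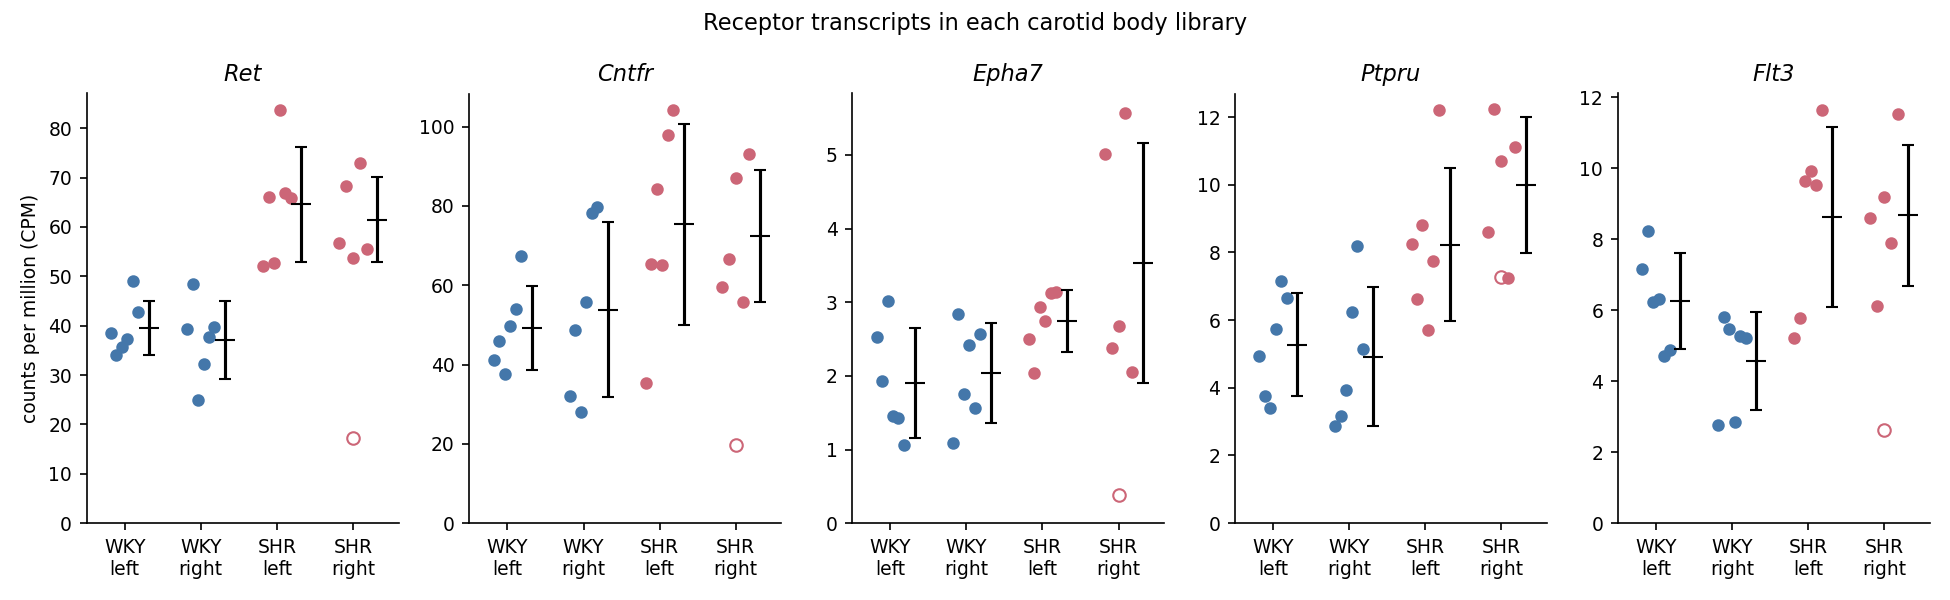
Level of each receptor transcript in CPM in every library, by strain and side, with its own vertical axis from 0 for each gene. Filled points are the 23 libraries of the strain comparison, black bars give the mean ± SD of a group, and the open circle is the right CB of SHR rat 34, scaled with all 24 libraries. The Ret points of SHR lie between 52.0 and 83.7 CPM, above all WKY points, while the points of the other 4 genes overlap between strains.

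Cntfr had the highest biological coefficient of variation of the 5, at 31%, with Epha7 next at 29.5%. In WKY the lowest, median and highest left CB read 37.5, 47.8 and 67.3 CPM, and the right CBs read 28.0, 52.3 and 79.8 CPM. In SHR the left CBs read 35.3, 74.9 and 104 CPM, and the right CBs read 55.9, 59.6, 66.7, 87.1 and 93.0 CPM. The strains overlapped, with 3 of 6 SHR rats above every WKY rat. WKY rats averaged 51.5 ± 16.1 CPM and SHR rats 76.5 ± 22.0 CPM (SD, n = 6 each), a ratio of 1.49. Among right WKY libraries the coefficient of variation was 41%, against 4.29% expected from counting alone, a spread well beyond counting error.

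Epha7 was read at low depth, with 11 to 31 counts in a WKY library and 19 to 53 in an SHR library. The lowest, median and highest CPM were 1.06, 1.69 and 3.02 in left and 1.09, 2.08 and 2.85 in right CBs of WKY, and 2.03, 2.84 and 3.14 in left CBs of SHR. The right CBs of SHR read 2.05, 2.37, 2.68, 5.01 and 5.58 CPM, the upper pair being rats 30 and 36. WKY rats averaged 1.97 ± 0.354 CPM and SHR rats 3.11 ± 0.737 CPM (SD, n = 6 each), a ratio of 1.58, and 5 of 6 SHR rats lay above every WKY rat. Counting error alone gives a coefficient of variation of 16.4% to 22.7% at these counts, and the left SHR libraries varied by 15.4%, within it. The other groups varied by more than counting gives, at 39.1% in left and 33.1% in right CBs of WKY and 46.1% in right CBs of SHR.

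Ptpru had the widest strain ratio of the 5. In WKY the lowest, median and highest left CB read 3.41, 5.34 and 7.16 CPM, and the right CBs read 2.87, 4.53 and 8.20 CPM. In SHR the left CBs read 5.71, 8.005 and 12.2 CPM, and the right CBs read 7.26, 8.61, 10.7, 11.1 and 12.2 CPM. The 6 WKY rats averaged 5.10 ± 1.69 CPM and the SHR rats 9.29 ± 1.87 CPM (SD, n = 6 each), a ratio of 1.82. SHR rat 36, at 6.48 CPM, was the only SHR rat inside the WKY range, whose highest value was 7.68 CPM in rat 37.

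Flt3 read 4.70, 6.28 and 8.23 CPM at the lowest, median and highest in left CBs of WKY and 2.78, 5.25 and 5.80 CPM in right CBs. In SHR the left CBs read 5.22, 9.58 and 11.7 CPM, and the right CBs read 6.12, 7.89, 8.61, 9.19 and 11.5 CPM. The average over rats was 5.41 ± 0.889 CPM for WKY, and for SHR it was 8.90 ± 2.15 CPM (SD, n = 6 each), a ratio of 1.64, and 4 of 6 SHR rats lay above every WKY rat. SHR rats 30 and 31, at 6.92 and 5.95 CPM, fell inside the WKY range.

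In a model of strain with side as covariate (edgeR quasi-likelihood), the log2 fold change of SHR over WKY was 0.72 (SE 0.0925) for Ret, 0.82 (SE 0.170) for Ptpru, 0.68 (SE 0.160) for Flt3, 0.65 (SE 0.209) for Epha7 and 0.52 (SE 0.190) for Cntfr. At an adjusted p under 0.05 the first 4 were called higher and Cntfr was not, where 10.3% of all 14243 genes tested were called higher and 20.0% were called in either direction. With DESeq2, the tool named in the study's processing notes, all 5 were called, Cntfr included, where 21.9% of genes were called in either direction. Because the genes were picked from this contrast nothing is read from these counts. Left CBs alone gave 0.71 (SE 0.113) for Ret, 0.64 (SE 0.218) for Ptpru, 0.47 (SE 0.209) for Flt3, 0.53 (SE 0.286) for Epha7 and 0.61 (SE 0.241) for Cntfr. Right CBs alone gave 0.73 (SE 0.139) for Ret, 1.02 (SE 0.247) for Ptpru, 0.92 (SE 0.225) for Flt3, 0.78 (SE 0.323) for Epha7 and 0.43 (SE 0.287) for Cntfr. Of the 5, Ret alone was called in left CBs, where 9.09% of 14212 genes were called in either direction, and Ret, Ptpru and Flt3 were called in right CBs, where 5.96% of 14239 genes were. Epha7 and Cntfr lay near the threshold. Epha7 was not called without WKY rat 37, SHR rat 30 or SHR rat 36 (log2 fold change 0.58, 0.58 and 0.55), and Cntfr was called without WKY rat 37, WKY rat 41 or SHR rat 30 (0.60, 0.65 and 0.63).

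**Figure D2:**
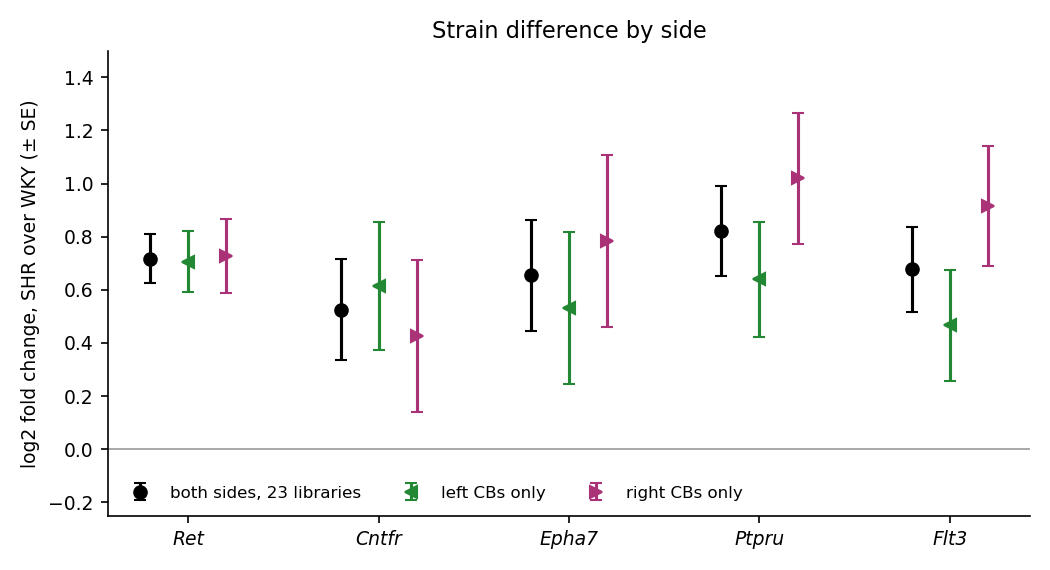
Log2 fold change of SHR over WKY for the 5 genes, with standard errors, from both sides together (circles), left CBs only and right CBs only (triangles). Ret reads 0.72, 0.71 and 0.73 in the 3 fits, and the right-side estimates of Ptpru (1.02), Flt3 (0.92) and Epha7 (0.78) lie above the left-side ones (0.64, 0.47 and 0.53).

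Whether the strain difference depended on the side, and whether the sides differed at all, did not enter the choice of genes and could be tested. No member passed the test between left and right CBs. Over both strains the log2 difference of left minus right was 0.08 for Ret (SE 0.0926, adjusted p = 0.959), 0.22 for Flt3 (SE 0.161, adjusted p = 0.943), -0.23 for Epha7 (SE 0.209, adjusted p = 0.944), -0.09 for Ptpru (SE 0.170, adjusted p = 0.973) and -0.04 for Cntfr (SE 0.190, adjusted p = 0.992), from edgeR's quasi-likelihood fit, Benjamini-Hochberg adjusted over all genes. None of the 14243 genes passed this test, which leaves 0% called, and none passed by DESeq2. An unadjusted edgeR p under 0.05 was found for 686 genes, no more than that threshold lets through by chance alone. The standard errors set what could be seen, at 0.209 for Epha7 against 0.0926 for Ret.

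Within single SHR rats the sides of Ret lay close together, and within WKY rats they lay further apart. The right CB held 82.9% to 109% of the left CB's Ret level in the 5 SHR rats with both sides, and 69.9% to 142% in the 6 WKY rats. Left was higher in 6 of 11 rats and right in 5, so no side led. Epha7 ranged from 43.2% to 242% over the 11 rats, the widest range of the 5 genes and also the one with fewest counts.

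Ptpru and Flt3 had the largest contrasts between the strains in laterality, and neither passed. The right CB held more Ptpru than the left in 5 of 5 SHR rats, at 104% to 184% of the left level, and in 3 of 6 WKY rats. The log2 difference of left minus right was -0.29 in SHR (SE 0.196, edgeR adjusted p = 0.869) and 0.10 in WKY (SE 0.261), and the difference between strains was -0.38 (SE 0.339, edgeR adjusted p = 0.999966). Flt3 was higher in the left CB in 4 of 6 WKY rats, most of all in rats 32 and 36 where the right CB held 38.7% and 45.2% of the left level. Its log2 difference of left minus right was 0.45 in WKY (SE 0.217, edgeR adjusted p = 0.999852) and -0.0038 in SHR (SE 0.217), with a difference between strains of -0.45 (SE 0.316, edgeR adjusted p = 0.999966). The strain by side term of Ret was -0.02 (SE 0.189), of Cntfr 0.19 (SE 0.387) and of Epha7 -0.25 (SE 0.425), and 0% of genes passed that edgeR test, with 439 of 14243 at an unadjusted p under 0.05 and none passing by DESeq2. Those 439 genes are likewise no more than the threshold lets through by chance alone.

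**Figure D3:**
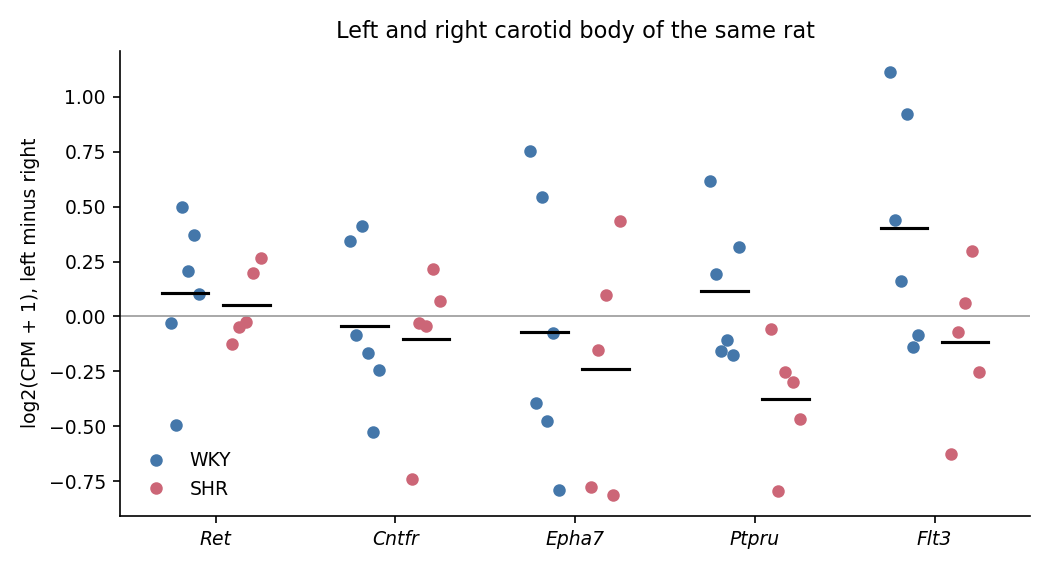
Difference of left minus right CB on the log2(CPM + 1) scale in each rat with both sides, 6 WKY and 5 SHR rats, with black lines at the mean of each strain. All 5 SHR points of Ptpru lie below 0 and the WKY points of Flt3 reach 1.11, and for every gene the points of the 2 strains overlap.

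The right CB of SHR rat 34 stood apart and was not used in choosing the genes. Its library held 10450867 counts, within the range of the others. Tg reached 7950 CPM there against 2.42 CPM in the left CB of the same rat, the 4 adipocyte markers summed to 440 against 72.0 CPM, and the 5 glomus markers summed to 61.4 against 1662 CPM, 3.70% of the left. The markers that define the labelled tissue were thus near absent. A single library allows no test.

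In that library the 5 receptors kept unequal shares of their left-side level. Ret read 137 counts, or 17.2 CPM against 64.7 CPM in the left CB (26.5%), Cntfr 19.8 against 102 CPM (19.4%), Flt3 2.63 against 11.4 CPM (23%) and Epha7 0.376 against 3.08 CPM (12.2%, from 3 counts). Ptpru kept the largest share, at 7.27 against 12.0 CPM (60.6%). Exact 95% intervals, which cover counting error only, ran from 43.3% to 84.1% for Ptpru, from 21.9% to 32% for Ret and from 2.38% to 39.5% for Epha7, so the interval of Ptpru lay above the other 2. In the other 5 SHR rats the lowest share of the right CB was 82.9% for Ret, 85.8% for Cntfr, 65.7% for Epha7, 104% for Ptpru and 79.4% for Flt3, so all 5 lay below that range in rat 34. The 5 glomus markers kept 3.70% and the neuronal markers Prph and Nefh 7.04%, below the intervals of Ret and Ptpru and inside that of Epha7. Macrophage markers kept 67.5%, the dendritic and antigen presentation markers 64.8% and endothelial markers 58.2%, beside 60.6% for Ptpru but 23% for Flt3 and 19.4% for Cntfr. Among the 2 matched neurotrophin genes, Bdnf and Sorcs3, the summed level kept 0.578%. Including this library in the strain model gave log2 fold changes of 0.62 for Ret, 0.43 for Cntfr, 0.54 for Epha7, 0.79 for Ptpru and 0.60 for Flt3, and Epha7 was then no longer called, with 10.4% of 14259 genes called in either direction.

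**Figure D4:**
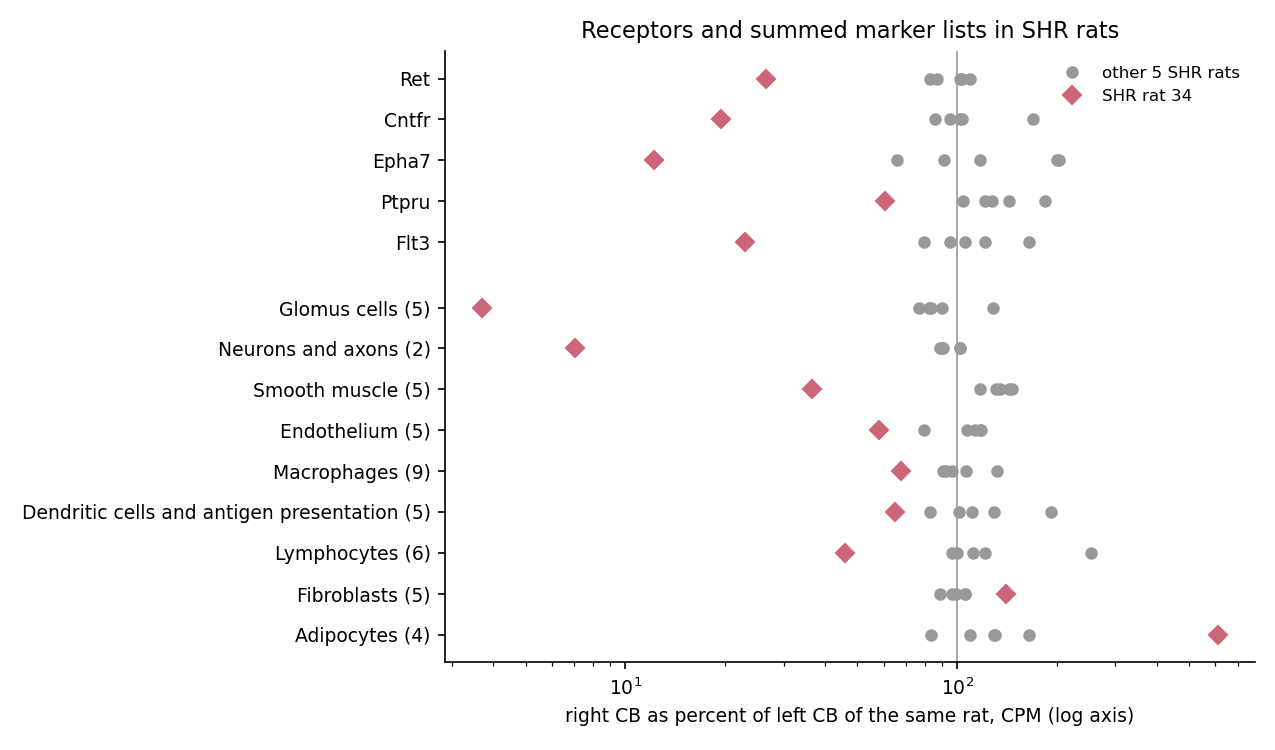
Level in the right CB as a percentage of the left CB of the same SHR rat, on a log axis, for the 5 receptors (top) and the summed CPM of 9 marker lists (number of matched genes in brackets), with rat 34 as diamonds and the other 5 rats as grey points. In rat 34 the receptors lie between 12.2% and 60.6%, the glomus markers at 3.70% and the adipocyte markers at 611%.

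How the receptors varied among libraries of one strain and side was a measure the choice of genes did not use. It is given as the correlation of log2(CPM + 1) residuals over 23 libraries after the mean of each strain and side was removed. The libraries come in pairs from 12 rats and share tissue composition and depth, so the values describe these libraries and carry no p. The mean over the 10 pairs of members was 0.109, with pairs running from -0.33 to 0.62. Cntfr and Ptpru went together most (Pearson r 0.62, Spearman rho 0.68, and 0.75 over the 12 rats), followed by Cntfr and Flt3 (Pearson r 0.39). Epha7 and Ptpru went apart (r = -0.33). In SHR the rats 33, 34 and 37 had the 3 highest levels of Cntfr, at 85.7, 104 and 95.4 CPM, and of Flt3, at 9.42, 11.7 and 10.5 CPM. Rats 33 and 34 also led for Ptpru, at 9.76 and 12.2 CPM, with rats 31 and 37 level behind them at 9.43 CPM. Ret and Epha7 were instead highest in SHR rat 36, at 78.3 and 4.16 CPM. With the right CB of SHR rat 34 included the mean over pairs rose to 0.414, and Ret with Cntfr went from 0.29 to 0.64, so those values rest on 1 library.

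Ret ran with the glomus markers. Its residuals correlated at 0.73 with the summed level of the 5 glomus markers, led by Chgb at 0.71 and Chga at 0.67, and at -0.66 with the 5 fibroblast markers, where 95% of the 14242 other genes stayed at or below 0.55 with Ret. In the strain model the glomus genes Chga, Chgb and Dbh were themselves called higher in SHR, by 0.36 and 0.40 on the log2 scale for the chromogranins and 0.71 for Dbh, the noradrenaline-making enzyme, beside 0.72 for Ret. With all 24 libraries none of these 3 was called. The part of this in the Ret level was not tested. The 5 named genes most like Ret were Nfasc, an axonal adhesion molecule (r 0.83, rank 11 of 14242), Kcnh2, the ERG potassium channel (0.81), Pdxp, a pyridoxal phosphatase (0.79), Il4r, the interleukin-4 receptor (0.78), and Lamc3, a laminin chain (0.77). Names were limited to genes listed as higher in SHR, and 10 unnamed genes ranked above Nfasc.

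Cntfr ran instead with macrophage and some vascular markers, at 0.65 with the summed level of 9 macrophage markers, led by the mannose receptor Mrc1 at 0.72, and 0.54 with 5 endothelial markers, and at 0.32 with the summed glomus markers. All 9 macrophage markers were called higher in SHR beside 10.3% of all genes, with a median log2 fold change of 0.61. Direction, size and share called depend on how names were obtained, from genes listed as higher in SHR, so nothing is read from them. With counts summed per rat 6 of the 9 were called beside 6.93% of all genes, without Mrc1, Cd163 and Lyve1, and 5 were called in left and 1 in right CBs. Their summed level was 114 to 183 CPM in WKY and 158 to 307 CPM in SHR libraries, and their part in the Cntfr level was not tested. In the right CB of SHR rat 34 the macrophage sum and Cntfr kept unlike shares of the left, 67.5% and 19.4%. The gene most like Cntfr of all 14242 was Cys1, a cilium-associated protein (r 0.91, and 0.96 over rats). Il31ra, the interleukin-31 receptor chain (0.90), Cpne7, a copine (0.90), Fmo2, a flavin monooxygenase (0.89), and P4ha2, a collagen prolyl hydroxylase (0.87), came next among the named genes. With all 24 libraries the value for Cys1 fell to 0.25, while that of Il31ra stayed at 0.85.

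The other 3 receptors had weaker company. Flt3 correlated at 0.54 with the summed level of 5 markers of dendritic cells and antigen presentation, a sum made up mostly of Cd74. The single genes ran from 0.09 for Cd86 to 0.59 for the class II transactivator Ciita, with the invariant chain Cd74 at 0.53. Of the 15 matched pathway genes described below, Ptprd and Epha5 reached 0.60 with Flt3 and Fgfr2 0.56, while Efna1 stood lowest at -0.55. Flt3 correlated at 0.40 with the summed level of 9 macrophage markers and at 0.09 with that of the glomus markers. With the summed level of 6 lymphocyte markers it correlated at 0.50, but the single genes ran from -0.23 to 0.55, the highest being Cd4, with a median of -0.011. The dendritic cell markers Clec9a and Xcr1 could not be matched. Its most alike named genes were St8sia2, a polysialyltransferase (0.77, rank 2), Angpt1, the ligand of the TIE2 receptor (0.73), Fam180a (0.69), Apobr (0.69) and Stap1 (0.69). Ptpru was most like Slc43a3 (0.73), Fam149a (0.68), Cys1 (0.68), Galnt15 (0.65) and Gpr182 (0.63), so Cys1 stood near both Ptpru and Cntfr. With all 24 libraries the values with Ptpru fell to 0.39 for Slc43a3 and 0.44 for Cys1, and that of Stap1 with Flt3 to 0.46. Epha7 reached 0.57 with Sntb2, 0.54 with Cd84 and with Sstr3, a somatostatin receptor, and 0.51 with both Gfral, the GDF15 receptor that signals through RET, and Fam78a, where 95% of genes stayed at or below 0.37. For Epha7, 44 unnamed genes ranked above Sntb2, the named gene most like it. Over the 12 rats Sntb2 reached 0.82 with Epha7, whereas Cd84 and Sstr3 fell to 0.20 and 0.19. When all 24 libraries were used, Sntb2, Cd84 and Fam78a fell to 0.33, 0.27 and 0.23 with Epha7. Sstr3 and Gfral then stood at 0.57 and 0.77.

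**Figure D5:**
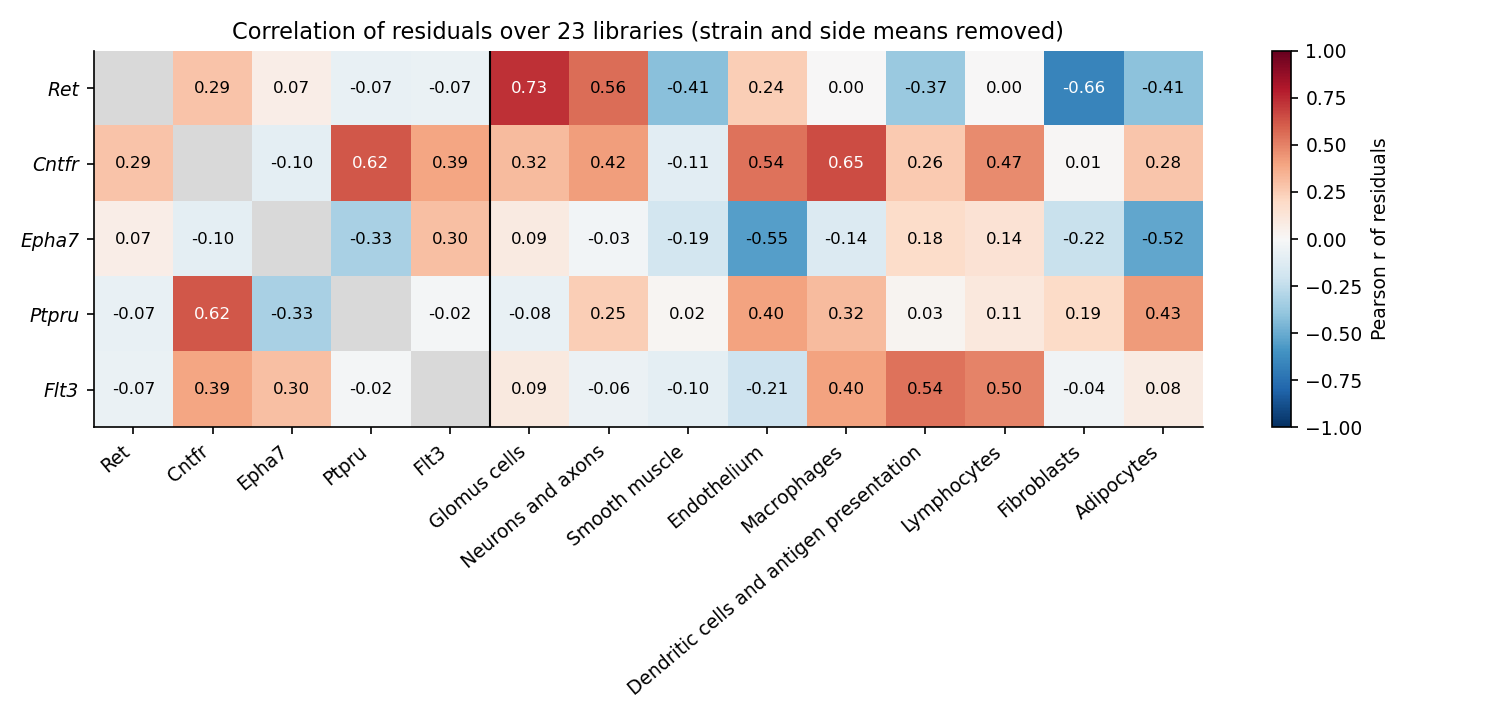
Pearson correlation over 23 libraries of log2(CPM + 1) residuals, after strain and side means were removed, between the 5 receptors (left block) and between each receptor and the summed CPM of 9 marker lists (right block). Ret reads 0.73 with glomus markers, Cntfr 0.65 with macrophage markers and Flt3 0.54 with the dendritic list, and Cntfr and Ptpru reach 0.62 with each other.

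Partners of the receptors could be followed only where a symbol was paired. For the GDNF family 2 of 10 listed genes were matched and neither was called between the strains. Persephin (Pspn), a ligand of the family, averaged 1.64 ± 0.140 and 2.15 ± 0.977 CPM in WKY and SHR rats, and Gfral 3.05 ± 0.732 and 3.997 ± 0.986 CPM (SD, n = 6 each). In the right CB of SHR rat 34 Gfral had 0 counts while Pspn had 19. For the CNTF and LIF family 2 of 12 were matched and neither was called, with log2 fold changes of 0.60 (SE 0.285) for Lif, a cytokine of the family, and 0.30 (SE 0.114) for Osmr, the oncostatin M receptor. Osmr ran against Ret over the libraries, with a correlation of -0.68, and Lif likewise at -0.53.

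Of 21 further Ephs and ephrins 4 were matched. Efna1, an ephrin-A ligand, was higher in SHR, at 33.6 ± 6.34 CPM against 24.3 ± 3.22 in WKY (log2 fold change 0.50, SE 0.105), as was Ephb6, a kinase-inactive Eph receptor, at 55.5 ± 5.10 against 46.2 ± 3.13 CPM (0.29, SE 0.0683), both past the adjusted threshold. Epha5 and Efnb3 gave 0.29 (SE 0.193) and 0.50 (SE 0.226) and did not pass. Of 20 receptor tyrosine phosphatases 2 were matched. Ptprv was called, with 6.62 ± 1.66 CPM in SHR against 3.90 ± 0.961 in WKY (log2 fold change 0.80, SE 0.167), a size next to the 0.82 of Ptpru, and Ptprd, at 0.33 (SE 0.128), was not. These calls stand beside 10.3% of all genes called higher. Ephb6 kept the call with all 24 libraries, where 10.4% of genes were called in either direction, and Efna1 and Ptprv lost it. Efna1 was called in left CBs alone but not in right CBs alone, and Ephb6 and Ptprv the other way round.

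Both matched neurotrophin genes of 12 were called. Bdnf, the brain-derived neurotrophic factor, had 2.45 ± 1.397 CPM in SHR against 1.13 ± 0.305 in WKY (log2 fold change 0.93, SE 0.265), and Sorcs3, a sortilin-family receptor, had 12.6 ± 2.25 against 8.75 ± 1.28 CPM (0.47, SE 0.118). The SHR rats had a Bdnf median of 1.82 CPM and a highest value of 5.27 CPM, from 8 to 47 counts a library. Neither gene was called with all 24 libraries, and Bdnf was called in neither side alone. Of 29 other receptor tyrosine kinases 3 were matched, of which Fgfr2 was called (0.39, SE 0.108) and Flt4 and Fgfr4 were not (0.30, SE 0.110, and 0.28, SE 0.1005). No symbol among 12 further class III receptors and ligands was matched. The 15 matched genes therefore held 6 that were called, all higher, beside 10.3% of all genes, and 2 were called with all 24 libraries. Names came only from genes listed as higher in SHR in this same contrast, which fixed the direction and raised the share called. Nothing is read from that share. Between left and right CBs, a contrast that fixed no direction, 0 of the 15 passed, with the largest difference at -0.47 for Ptprv (SE 0.167, edgeR adjusted p = 0.943).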

How the data were processed

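The authors deposited a table of read counts per gene for 24 libraries. Their processing notes name FastQC, STAR, featureCounts and DESeq2, and the genome build of these deposited counts is not given in the sources used here. The libraries were made with a stranded mRNA kit. The counts were analysed as deposited, and no column was left unmapped. Columns of the authors' own comparisons (fold changes and p-values) were not used, and their table served only to pair identifiers with symbols: of 1391 rows read, 1273 identifiers carried one. The 5 members and all gene lists were chosen with earlier results of these data known.

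Strain (with side as covariate), side and the strain by side term were tested with edgeR 4.0.16 in R 4.3.3 (TMM scaling, robust quasi-likelihood, Benjamini-Hochberg over all genes with a mean normalized count above 10, threshold 0.05), over 23 libraries. The right CB of SHR rat 34 was left out, as in the study. DESeq2 1.42.0 and limma 3.58.1 served as alternatives, and the edgeR fits were tested on simulated data. CPM of the left-out library, and of the left CB set beside it, use scaling over all 24 libraries, and rat 34 enters rat means with its left CB alone. Named genes were the members, for each the 5 genes with a symbol whose residuals correlated highest with it, and every listed gene with a symbol. A gene of the marker lists enters the sums and counts, and its own values are not reported here. A pseudocount of 1 CPM was added before logarithms. Left and right CBs of one rat share an animal: their residuals over genes correlated between -0.0356 and 0.312 in 11 rats, so libraries are not fully independent and p-values of the library-level strain model may be too small. Rat numbers that occur in both strains belong to different rats (7 pairs, r from -0.367 to 0.0797). No 2 replicates agreed within sampling noise (60 pairs, lowest chi-square per degree of freedom 5.42). Promoters came from RefSeq (GRCr8) and were matched by gene number.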

Additional observations from a re-analysis of the deposited data

Results flagged for a closer look

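Ret in the right CB of SHR rat 34 lay far from the other right CBs of SHR when all 24 libraries were scaled together, at 17.2 CPM against 53.0 CPM for the next lowest library. Its gap to that library took up 0.657 of the whole range, above the critical value of 0.625 for 6 samples. It was the only such case in 25 groups examined for the 5 genes, where chance alone gives about 1 in 20.

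The same library, which the strain comparison did not use, held summed marker levels above those of every WKY library. They were 7950 CPM for thyroglobulin, 440 CPM for 4 adipocyte markers, 587 CPM for 5 fibroblast markers, 72.2 CPM for Pmp2, the only matched marker of sustentacular and Schwann cells, and 147 CPM for the 4 matched Ephs and ephrins. The fibroblast sum lay inside the range of the other SHR libraries (381 to 608 CPM) and the other sums above it. Of the Eph and ephrin sum 133.8 CPM were Ephb6, while Efna1 and Epha5 stood at 45.2% and 2.78% of the left CB.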

How the results depend on the processing

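For strain, the members called were 4 of 5 in the reported fit, 1 with left CBs only, and 3 to 5 when single rats were left out. The genes called fell from 2844 to 1490 with all 24 libraries, 1292 with left CBs only and 849 with right CBs only (fewer samples in both), and ranged from 2212 to 2837 without single rats. With the rat number as a replicate block, 1730 genes and 4 members were called, Cntfr gaining the call (log2 fold change 0.75) and Epha7 losing it (0.67), but the numbers pair different rats. With the rat as a block, a true pairing, the side tests called 0 members, and 1 gene in all within SHR against 0 without it. The block turned 2 member values, neither past the threshold, from plus to minus: Cntfr within SHR (-0.10) and its strain by side term (-0.0376). All 24 libraries turned Cntfr left minus right over both strains (0.0534), Flt3 within SHR (0.17) and the strain by side term of Ret (0.15). The causes of these turns were not tested. Leaving out single rats gave ranges across 0 for Cntfr over both strains (-0.0934 to 0.0213), Cntfr within SHR (-0.0556 to 0.14), Flt3 within SHR (-0.10 to 0.10), Epha7 within WKY (-0.32 to 0.10) and the strain by side term of Ret (-0.15 to 0.0442). The mean correlation of member pairs was 0.109, ran from 0.0562 to 0.150 without single rats, and was 0.414 with all 24 libraries. Depth limits Epha7 most, at 11 to 53 counts a library.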
